A study of Mus musculus with 4 samples.

Results

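p53 and 9 of its direct target genes were followed in embryonic stem cells (ESCs) that lack the telomerase RNA *Terc*. The 10 genes, *Trp53* (which encodes p53), *Mdm2*, *Ccng1*, *Cdkn1a*, *Bax*, *Bbc3*, *Pmaip1*, *Phlda3*, *Zmat3* and *Sesn2*, were taken by name as textbook members of the p53 pathway, and all 10 were among the 24116 genes of the count table. These genes and the lists below were chosen with earlier results of these data known, so their counts are not an independent test. RNA-seq compared G3 *Terc*-/- ESCs (line F35, genotype *Terc* knockout) with WT ESCs (line N12, titled G3 WT in the labels), both of strain C57BL/6 and grown on feeder cells with LIF and serum, with 2 libraries of poly(A) RNA for each genotype. G3 denotes the third generation without telomerase, derived from *Terc*-deficient parents of the generation before. The labels give 1 ESC line per genotype. A difference between the genotypes therefore cannot be told apart from a difference between the lines, and p-values measure the spread between libraries of a line. The study asked how telomere shortening alters expression and genome stability, and the p53 pathway is the classical route by which cells read damaged chromosome ends. By staining for γH2AX, a mark of DNA damage, the study reported no elevated damage in G3 *Terc*-/- ESCs.

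p53 is a transcription factor that is held at low protein levels by the ubiquitin ligase *Mdm2* and is stabilised when kinases of the DNA damage response act on it. It binds paired decamer sites in DNA and switches on genes that arrest the cell cycle, start apoptosis, limit growth signals and shut p53 off again. Because p53 is regulated mainly as a protein, the level of *Trp53* mRNA alone does not report its activity, and its target genes are commonly read in its place. Mouse ESCs hold abundant p53, much of it outside the nucleus, and lack a strong G1 checkpoint.

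Gene counts summed to 18047995 to 22520017 per library, and 14896 genes passed the filter on low counts and were tested, including all 10 p53 genes. *Terc* counts were 7 and 2 in WT and 0 in each G3 *Terc*-/- library. The 10 pluripotency markers summed to 6049 and 6152 CPM (counts scaled by library size after TMM normalisation) in WT and to 7333 and 7648 CPM in G3 *Terc*-/- libraries, with 8 called higher and 2 lower. The 8 markers of primitive endoderm summed to 253 and 239 CPM in WT and to 235 and 207 CPM in G3 *Terc*-/- libraries, with 3 called lower and 0 higher by edgeR (21.8% and 21.7% of all tested genes). None of the 12 feeder fibroblast markers was at 0 in all libraries, and they summed to 1526 and 1260 CPM in WT and to 2089 and 1776 CPM in G3 *Terc*-/- libraries. Most of that sum was *Fn1*, and without it the sums were 389 and 252 CPM in WT and 393 and 270 CPM in G3 *Terc*-/- libraries. With *Fn1* and without it, the marker sum was higher in replicate 1 of each genotype than in replicate 2. Of the 11 feeder markers tested, 5 were higher and 1 lower, where 21.7% and 21.8% of all tested genes were called in these directions by edgeR. Fibroblasts also express p53 target genes, and the part of feeder RNA in the results below was not tested. In bulk RNA, fewer cells of a type and less RNA per cell cannot be told apart.

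Of the 10 p53 genes, 7 were higher in G3 *Terc*-/- ESCs and 0 were lower at an adjusted p under 0.05 from edgeR's quasi-likelihood test. The shares over all tested genes were 21.7% higher and 21.8% lower, 43.5% in either direction, so that a call in one gene was common in this comparison. *Pmaip1* showed the largest rise of the 10 genes, 3.25-fold, followed by *Ccng1* and *Phlda3* at 1.65-fold each. *Sesn2* and *Zmat3* rose 1.39-fold and 1.36-fold, and *Bax* and *Mdm2* 1.20-fold and 1.18-fold. *Trp53*, *Cdkn1a* and *Bbc3* did not pass the test. The median log2 fold change of the 10 genes was 0.36, against 0.01 over all genes tested. At the cutoffs of the study, a fold change of 2 and an unadjusted P value of 0.05, only *Pmaip1* was called, as 1 of 10 genes against 7.85% of all genes (4.73% higher and 3.13% lower). The same count of 7 higher and 0 lower was obtained with DESeq2, and 0 genes were lower at an unadjusted p under 0.05 with edgeR. Leaving out any 1 of the 4 libraries also gave 7 higher and 0 lower.

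**Figure D1:**
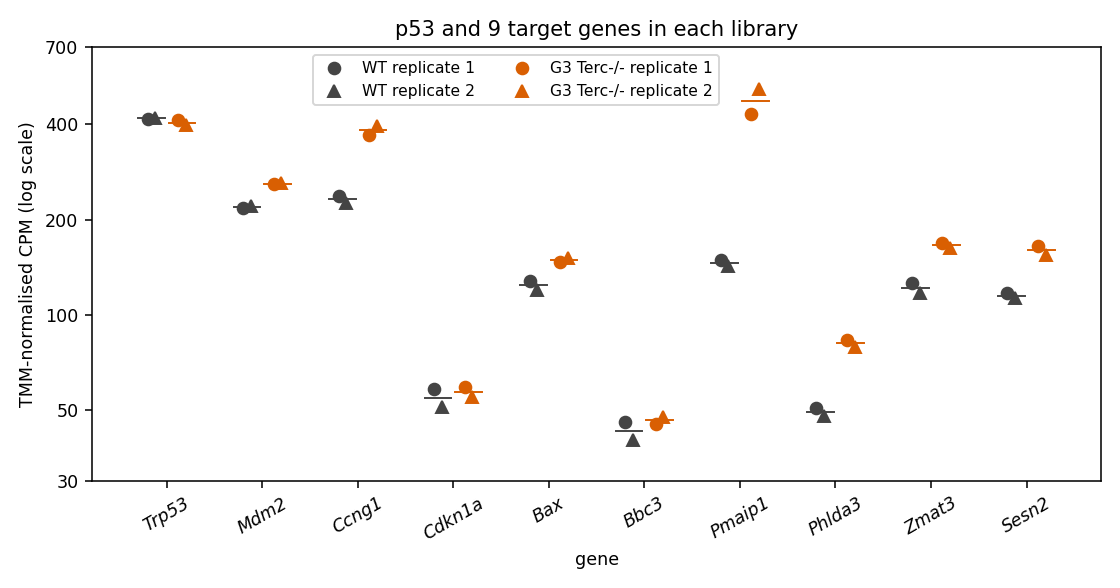
TMM-normalised CPM (log scale) of p53 and 9 target genes in each of the 4 libraries, with grey symbols for WT, orange symbols for G3 Terc-/-, circles for replicate 1, triangles for replicate 2 and a bar at each group mean. Both G3 Terc-/- libraries lie above both WT libraries for 7 genes, most widely for Pmaip1, while the groups overlap for Cdkn1a and Bbc3 and lie close together for Trp53.

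**Figure D2:**
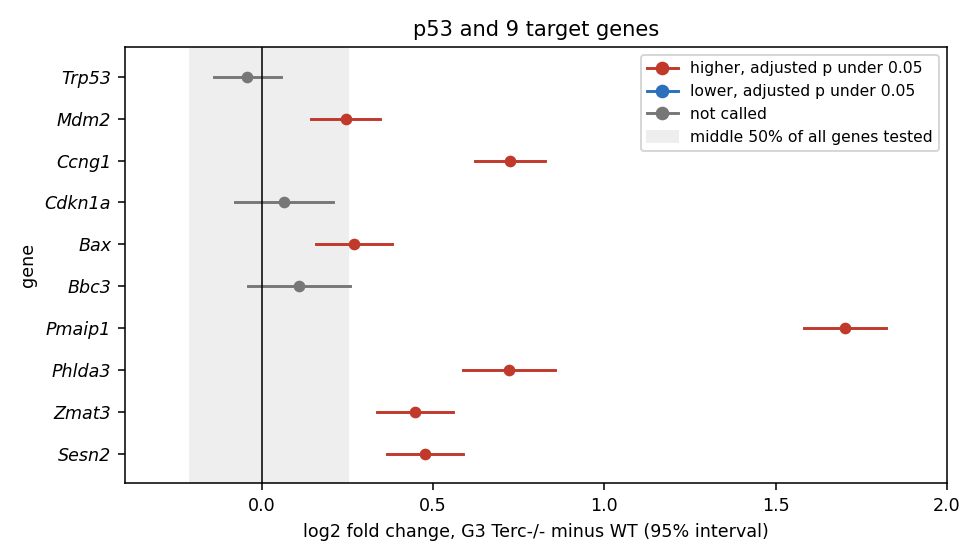
Log2 fold change of the 10 genes (G3 Terc-/- minus WT) with its 95% interval from the edgeR fit; red points were called higher, grey points were not called, and the grey band holds the middle 50% of all genes tested. Pmaip1 stands at 1.70, and Trp53, Cdkn1a, Bbc3 and Mdm2 (0.24, called higher) lie within the band.

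Levels were compared between genes as RPKM (reads per kilobase of merged exons, scaled by total gene counts). In WT ESCs *Trp53* was the most abundant of the 10 genes, at 102 ± 0.514 RPKM (SD, n = 2), followed by *Bax* at 77.6 ± 3.66 RPKM and *Ccng1* at 65.2 ± 2.60 RPKM. *Zmat3* was the least abundant, at 10.5 ± 0.567 RPKM, below *Cdkn1a* at 15.2 ± 1.40 RPKM and *Bbc3* at 20.1 RPKM. *Pmaip1*, *Mdm2*, *Sesn2* and *Phlda3* lay between, at 52.8, 42.6, 32.7 and 31.3 RPKM, and the ranges of *Sesn2* and *Phlda3* overlapped, the only neighbours in this order of WT levels to do so. In G3 *Terc*-/- ESCs *Pmaip1* moved from rank 4 to rank 1, at 176 ± 22.2 RPKM (SD, n = 2), above *Ccng1* at 110 ± 4.91 RPKM and *Trp53* at 101 ± 2.40 RPKM. Among G3 *Terc*-/- levels the neighbours *Phlda3* and *Mdm2*, at 52.8 and 51.7 RPKM, were the only ones to overlap. *Cdkn1a*, which encodes the p21 inhibitor of cyclin-dependent kinases, kept rank 9 in both genotypes. Its level was therefore far below that of *Trp53*, the gene of its activator, in every library.

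*Trp53* (gene identifier 22059, chromosome 11 of GRCm38 from 69580348 to 69591873, plus strand) had 415 and 420 CPM in WT and 412 and 399 CPM in G3 *Terc*-/- libraries. Both G3 *Terc*-/- values lay just under both WT values, a pattern that 34.9% of all genes tested showed. The log2 fold change was -0.04 (standard error, SE, 0.05, 95% interval from -0.14 to 0.05, edgeR adjusted p = 0.506). *Mdm2*, the ligase that marks p53 for degradation and is itself a p53 target (gene identifier 17246, chromosome 10 from 117688875 to 117710758, minus strand), had 218 and 221 CPM in WT and 259 and 261 CPM in G3 *Terc*-/- libraries. The replicates of *Mdm2* nearly coincided and the groups lay apart, with a log2 fold change of 0.24 (SE 0.05, edgeR adjusted p = 8.92e-05).

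*Ccng1* encodes cyclin G1, a p53 target that brings a phosphatase to *Mdm2* and thereby feeds back on p53 (gene identifier 12450, chromosome 11 from 40748552 to 40755309, minus strand). It had 238 and 226 CPM in WT and 371 and 396 CPM in G3 *Terc*-/- libraries, all of the latter above all of the former. Its log2 fold change was 0.72 (SE 0.05, edgeR adjusted p = 1.09e-15). The RefSeq promoter windows of GRCm38.p6 run from 250 bases before to 50 after a transcription start. Of these, 11 windows of 8 of the 10 genes were searched for the p53 response element. The element was sought as 2 decamers, each 3 purines, C, A or T, A or T, G and 3 pyrimidines, up to 13 bases apart, with at most 1 mismatch outside the C and G. The decamer pattern is its own reverse complement, so the search covers both strands. The mismatch was allowed after the data were seen. Windows of *Ccng1* and *Cdkn1a* held such an element, that of *Ccng1* only with the mismatch, against 0.627% of all 32851 windows. Both promoters are printed 5′ to 3′ from 250 to 31 bases before the start with the decamers in capitals, because 1 of these genes rose and the other did not pass the test.
Ccng1 (minus strand, chr11:40755317-40755536): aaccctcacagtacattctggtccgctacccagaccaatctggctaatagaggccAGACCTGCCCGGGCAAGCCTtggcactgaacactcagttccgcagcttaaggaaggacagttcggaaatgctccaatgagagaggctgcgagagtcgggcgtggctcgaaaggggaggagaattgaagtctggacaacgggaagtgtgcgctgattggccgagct
Cdkn1a (plus strand, chr17:29090729-29090948): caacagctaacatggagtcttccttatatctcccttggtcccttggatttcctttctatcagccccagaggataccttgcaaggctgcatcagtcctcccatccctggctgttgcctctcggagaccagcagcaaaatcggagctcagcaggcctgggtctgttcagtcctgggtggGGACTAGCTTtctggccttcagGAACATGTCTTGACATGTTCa

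The *Ccng1* element begins 195 bases before the start and has no spacer and 1 mismatch. The *Cdkn1a* window of the upstream of 2 annotated starts held a pair of overlapping matches that share the decamer GAACATGTCT. One has no mismatch and a spacer of 12 bases and begins 73 bases before the start, and the other has no spacer and 1 mismatch and begins 51 bases before it. A match without any mismatch was present in 0.0731% of all windows, and one with at most 1 mismatch and no spacer, as in both genes, in 0.067%. The window of the downstream start of *Cdkn1a* held none. Single decamers without mismatch were also found in the windows of *Bax* (AGGCAAGCTT), *Mdm2* (GAACTTGCCT) and *Trp53* (GGACTTGCCC), and 8.36% of all windows hold at least 1. The windows of *Phlda3*, *Sesn2* and *Bbc3* held neither, which says only that these letters are not within these windows. These matches describe the sequence, and binding of p53 was not measured here. *Pmaip1*, the gene with the largest rise, and *Zmat3* were not searched, so nothing is said of their promoters.

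*Cdkn1a* (gene identifier 12575, chromosome 17 from 29090979 to 29100722, plus strand) is the target through which p53 arrests the cell cycle in most cell types. It had 58.2 and 51.4 CPM in WT and 59.4 and 55.1 CPM in G3 *Terc*-/- libraries, and the groups overlapped. In both genotypes replicate 1 was the higher library, as it was for *Phlda3*, *Zmat3* and *Sesn2*. The log2 fold change was 0.07 (SE 0.07, 95% interval from -0.08 to 0.21, edgeR adjusted p = 0.479), and without WT replicate 2 it was -0.02. A rise of *Cdkn1a* like that of *Ccng1* or *Phlda3* lay outside this interval. AC167363.2, a transcript on the opposite strand, shares 273 of the 3553 exonic bases of *Cdkn1a*, and the strand setting of the counts is not given in the sources used here.

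The 3 proapoptotic genes of the BCL2 family among the p53 targets behaved unequally. *Pmaip1* (gene identifier 58801, chromosome 18 from 66458604 to 66465558, plus strand) encodes Noxa, a BH3-only protein that binds the survival factor *Mcl1*. It had 149 and 143 CPM in WT and 432 and 518 CPM in G3 *Terc*-/- libraries, the widest separation of the 10 genes. The log2 fold change was 1.70 (SE 0.06, edgeR adjusted p = 1.35e-25), and it lay between 1.57 and 1.82 when single libraries were left out. With DESeq2 it was 1.69, with a larger SE of 0.13. The G3 *Terc*-/- libraries differed more from each other than those of any other of the 10 genes did, by an SD of 60.6 CPM around a mean of 475 CPM, and even the lower one exceeded the higher WT library by far more than that.

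*Bax* (gene identifier 12028, chromosome 7 from 45461695 to 45466903, minus strand) encodes the pore-forming effector of the mitochondrial outer membrane. It had 128 and 120 CPM in WT and 148 and 151 CPM in G3 *Terc*-/- libraries. The groups did not overlap, and the log2 fold change was 0.27 (SE 0.05, edgeR adjusted p = 8.69e-05). *Gm45808*, annotated on the same strand, shares 192 of the 1576 exonic bases of *Bax*. *Bbc3* (gene identifier 170770, chromosome 7 from 16308398 to 16318334, plus strand) encodes Puma, a BH3-only protein that neutralises all antiapoptotic members of the family. It had 46.1 and 40.2 CPM in WT and 45.4 and 47.7 CPM in G3 *Terc*-/- libraries, overlapping ranges. The log2 fold change of *Bbc3* was 0.11 (SE 0.07, 95% interval from -0.04 to 0.26, edgeR adjusted p = 0.245). The interval of *Bbc3* lay wholly below that of *Pmaip1*, from 1.58 to 1.82.

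The remaining targets act on growth signalling, RNA and stress. *Phlda3* (gene identifier 27280, chromosome 1 from 135766085 to 135769134, plus strand) encodes a pleckstrin homology protein that competes with the kinase Akt for membrane lipids. It had 50.8 and 47.9 CPM in WT and 83.5 and 79.1 CPM in G3 *Terc*-/- libraries, with a log2 fold change of 0.72 (SE 0.07, edgeR adjusted p = 3.61e-12). *Zmat3* (gene identifier 22401, chromosome 3 from 32334792 to 32365665, minus strand) encodes a zinc finger protein that binds RNA and regulates splicing. It had 126 and 117 CPM in WT and 168 and 163 CPM in G3 *Terc*-/- libraries, a log2 fold change of 0.45 (SE 0.05, edgeR adjusted p = 5.58e-09). *Sesn2* (gene identifier 230784, chromosome 4 from 132492804 to 132510456, minus strand) encodes sestrin 2, a stress protein that restrains mTORC1. It had 117 and 113 CPM in WT and 165 and 155 CPM in G3 *Terc*-/- libraries, a log2 fold change of 0.48 (SE 0.06, edgeR adjusted p = 1.48e-09). For *Phlda3*, *Zmat3* and *Sesn2* alike, every G3 *Terc*-/- library exceeded every WT library, which held for 35.5% of all genes tested.

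The 10 genes lie on 8 chromosomes (*Trp53* and *Ccng1* share chromosome 11, far apart, and *Bax* and *Bbc3* share chromosome 7), so each was set beside the 10 nearest tested genes of its chromosome. For the 7 genes that rose, the median log2 fold change of the neighbours lay between -0.11 for *Bax* and 0.22 for *Pmaip1*. For *Trp53* it was -0.14, with 2 neighbours higher and 4 lower. Over all tested genes with a position, 21.7% were higher and 21.8% lower. Among the 10 neighbours, 4 were higher and 1 lower around *Zmat3*, 3 and 0 around *Ccng1*, 0 and 4 around *Bax* and 0 and 2 around *Sesn2*, and around *Mdm2*, *Pmaip1* and *Phlda3* 2 were higher and 1 or 2 lower. The nearest tested neighbour of *Pmaip1*, *Gm9926* at 0.0456 Mb, rose as well, on few counts (WT 3 and 8, G3 *Terc*-/- 21 and 14, log2 fold change 1.77, edgeR adjusted p = 0.00630). It was named after its values were seen.

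**Figure D3:**
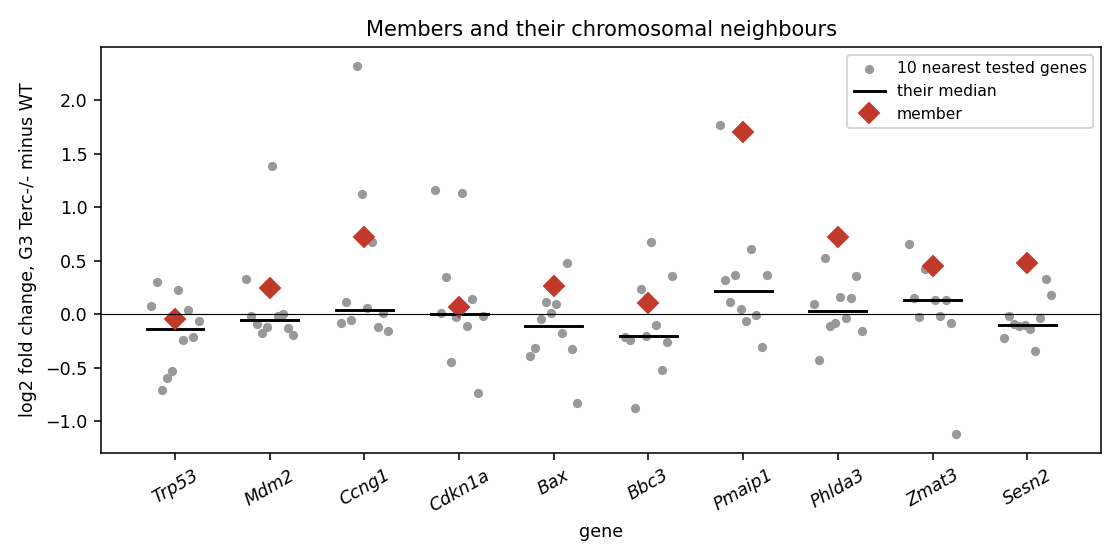
Log2 fold change (G3 Terc-/- minus WT) of each of the 10 genes (red diamonds), of the 10 nearest tested genes on its chromosome (grey points) and their median (black bar). The neighbour medians lie between -0.20 for Bbc3 and 0.22 for Pmaip1, whose own value is 1.70.

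Further direct targets of p53 were read from a list of 42 genes, of which 41 were tested. Of these, 27 were higher and 7 lower, against 21.7% and 21.8% of all genes tested, with a median log2 fold change of 0.40. By the cutoffs of the study 4 were higher (*Ak1* and, named after their values were seen, *Trp53cor1*, *Ptprv* and *Fas*) and 2 lower (*Eda2r* and *Gadd45a*). The shares over all genes tested at these cutoffs were 4.73% higher and 3.13% lower. *Trp53cor1* (WT 10 and 12 counts, G3 *Terc*-/- 16 and 29) and *Fas* (WT 16 and 18, G3 *Terc*-/- 33 and 30) rested on few counts. Among 13 genes of cell death 9 rose and 2 fell, and among 11 genes of the cell cycle 7 rose and 3 fell. Of 6 genes of DNA repair and nucleotide supply 4 rose and 0 fell by edgeR, with 4 and 0 also at an unadjusted p under 0.05. Of 7 genes of metabolism and stress 4 rose and 2 fell, and of 4 other genes 3 rose and 0 fell, unadjusted p-values giving the same counts. Only *Gtse1* of the 33 listed genes with a promoter window held a p53 response element of the kind described for *Ccng1*, and *Gtse1* rose from 207 and 219 CPM to 284 and 266 CPM.

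The changes of smallest p within this list went in both directions. *Ak1*, an adenylate kinase, rose from 41.6 and 36.9 CPM in WT to 84.4 and 77.5 CPM in G3 *Terc*-/- libraries (log2 fold change 1.04, edgeR adjusted p = 4.00e-16). *Perp*, a membrane protein of desmosomes and an effector of apoptosis, rose from 34.7 and 35.6 CPM to 60.3 and 65.7 CPM, and the kinase gene *Plk2* rose from 55.5 and 55.6 CPM to 89.6 and 90.0 CPM. *Eda2r*, a receptor of the tumour necrosis factor family, fell from 50.1 and 51.3 CPM to 8.12 and 9.81 CPM (log2 fold change -2.51, SE 0.09, edgeR adjusted p = 8.65e-25). *Gadd45a*, which encodes a growth arrest protein, fell from 110 and 112 CPM to 37.0 and 35.8 CPM (log2 fold change -1.61). *Gadd45a* lies on chromosome 6, where all 10 of its nearest tested genes were lower as well, with a median of -1.23, whereas the neighbours of *Eda2r* on the X chromosome had a median of 0.01. The other genes that fell, named after their values were seen, were *Gls2* (-0.80), *Plk3* (-0.70), *Sfn* (-0.49), *Ddit4* (-0.46) and *Triap1* (-0.30), with log2 fold changes in brackets. Some genes that rose also had neighbours that rose. Of the 10 nearest tested genes, 8 were higher around *Xpc* and 7 around *Tigar*, both on chromosome 6. Around *Sesn1* and *Tap1* 6 each were higher. The neighbour medians were 0.57, 0.26, 0.52 and 0.65, against -0.12 for *Ak1* and 0.02 for *Plk2*. *Xpc*, *Tigar*, *Sesn1* and *Tap1* were named after their values were seen. The part of such neighbourhoods in the rises was not tested.

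**Figure D4:**
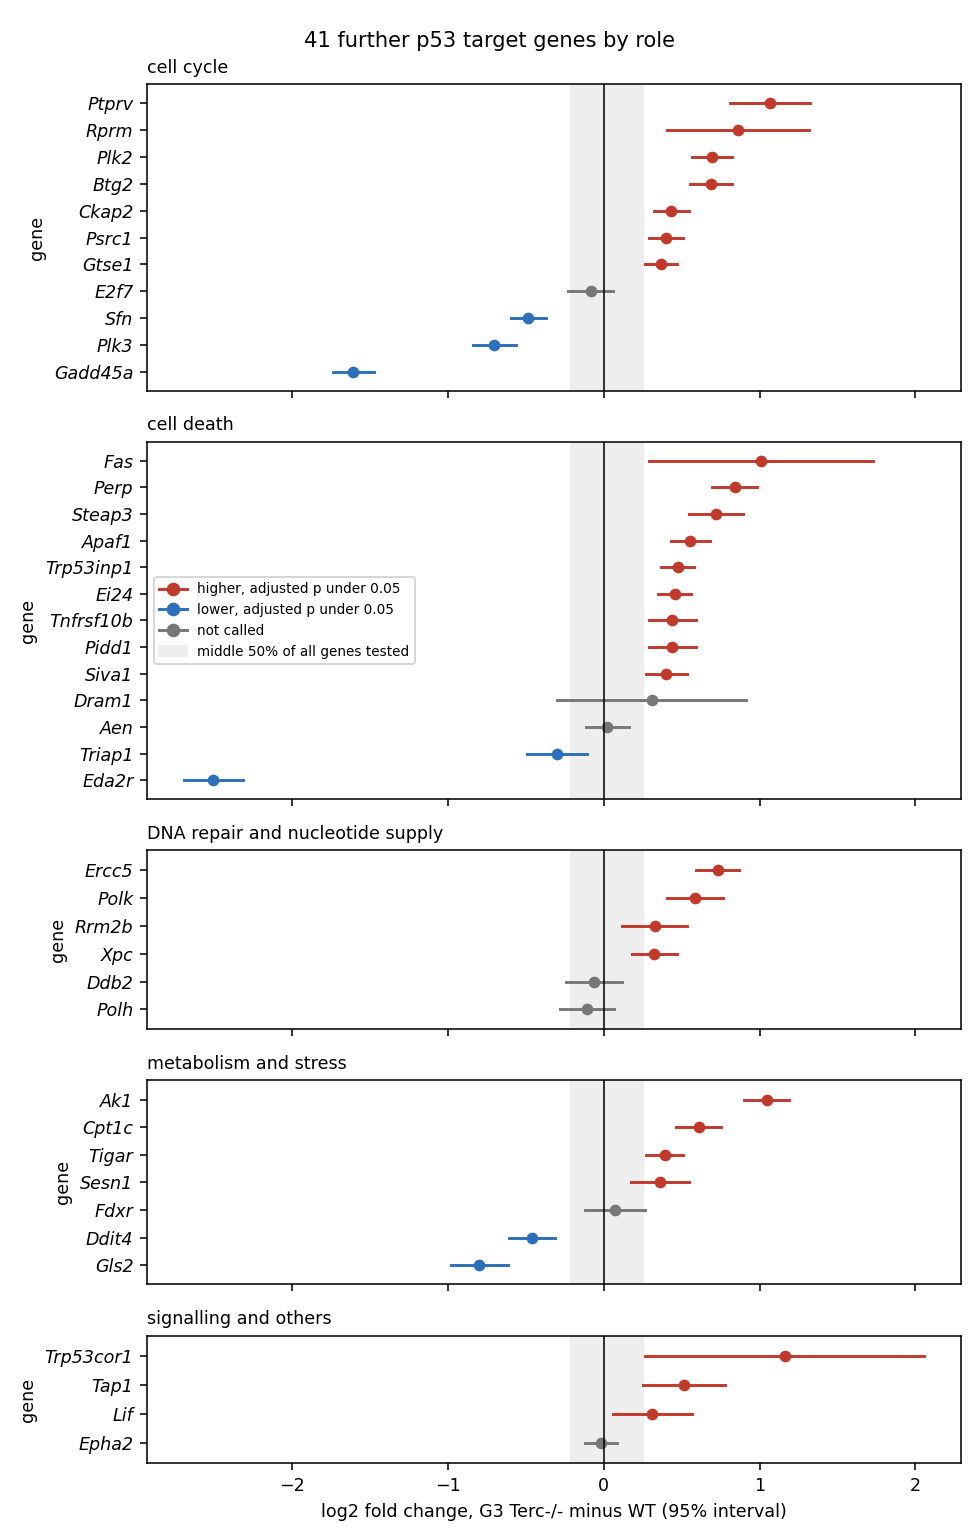
Log2 fold change (G3 Terc-/- minus WT) with its 95% interval for 41 further p53 target genes, grouped by role and ordered by value; red was called higher, blue lower and grey not called, and the grey band holds the middle 50% of all genes tested. The panels show 27 genes higher and 7 lower, with Eda2r at -2.51 and Gadd45a at -1.61 as the lowest.

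Genes that act on p53 or stand beside it were a mixed group. Of 31 tested, 6 were higher and 11 lower, against 21.7% and 21.8% of all genes, with a median log2 fold change of -0.08. *Mdm4*, the relative of *Mdm2* that blocks p53 without degrading it, fell from 243 and 259 CPM in WT to 191 and 195 CPM (log2 fold change -0.38, SE 0.05, edgeR adjusted p = 6.57e-08). *Mdm2* and *Mdm4* thus moved in opposite directions. *Pml*, the scaffold of nuclear bodies in which p53 is modified, fell from 288 and 287 CPM to 137 and 122 CPM (log2 fold change -1.15). *Trp53bp1*, whose product binds double-strand breaks, fell from 122 and 120 CPM to 75.9 and 81.1 CPM (log2 fold change -0.63), and *Kmt5a*, a methyltransferase of histone H4 that also acts on p53, from 149 and 149 CPM to 109 and 116 CPM (log2 fold change -0.40). The damage kinase genes were nearer 0, with log2 fold changes of 0.01 for *Atm*, 0.15 for *Atr*, 0.06 for *Chek1* and -0.07 for *Chek2*, none of them called.

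*Trp73*, the p53 relative that binds similar sites in DNA, was the strongest of this group. It rose from 6.55 and 6.18 CPM in WT to 29.1 and 28.8 CPM in G3 *Terc*-/- libraries, 4.55-fold (log2 fold change 2.19, SE 0.11, edgeR adjusted p = 1.56e-20), and its replicates differed little. Per length *Trp73* remained a small part of the family, with 1.14 ± 0.0511 RPKM in WT and 5.29 ± 0.0532 RPKM in G3 *Terc*-/- ESCs (SD, n = 2), against about 101 RPKM of *Trp53*. The gene counts do not separate the full-length forms of p73 from its shorter, inhibitory ones. *Trp63*, the other relative, had between 1 and 5 counts per library and was not tested.

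Downstream of p21 stand the cyclins and kinases that it inhibits and the retinoblastoma proteins. The list read here also held *Pcna*, *E2f1*, *E2f4* and other kinase inhibitors beside p21, namely *Cdkn1b*, *Cdkn1c*, *Cdkn2b*, *Cdkn2c* and *Cdkn2d*. Of its 20 genes, 5 were higher and 3 lower, against 21.7% and 21.8% of all genes, with a median log2 fold change of 0.04. *Ccne1*, the cyclin E that drives entry into S phase, fell from 297 and 300 CPM in WT to 148 and 145 CPM in G3 *Terc*-/- libraries (log2 fold change -1.03, edgeR adjusted p = 1.64e-20). *Ccnd2*, a D-type cyclin, rose from 41.2 and 33.0 CPM to 105 and 95.2 CPM (log2 fold change 1.44), and 7 of its 10 nearest genes on chromosome 6 were higher too. *Rb1*, the retinoblastoma gene, rose from 18.7 and 19.2 CPM to 38.3 and 40.998 CPM (log2 fold change 1.06). *Cdkn1c*, the imprinted relative of *Cdkn1a*, fell from 23.2 and 23.4 CPM to 12.8 and 11.9 CPM (log2 fold change -0.91). *Ccna2*, which encodes cyclin A2, had a log2 fold change of 0.17 (edgeR adjusted p = 0.00307) and lost its call when either WT library was left out. The others called were *Cdkn2c* (log2 fold change 1.05), *Rbl1* (0.24) and *Ccnd3* (-0.18), named after their values were seen.

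An active p53 and p21 axis represses mitotic genes through the DREAM complex. Of 22 genes known as DREAM targets, 11 were higher and 3 lower, against the same 21.7% and 21.8% of all genes, with a median log2 fold change of 0.14. Fewer of the 22 were called higher when either WT library was left out, as was so over all genes tested. The motor protein gene *Kif20a* rose from 316 and 331 CPM in WT to 434 and 430 CPM (log2 fold change 0.42). *Ube2c*, of the mitotic ubiquitin machinery, rose by 0.31 on the log2 scale, *Foxm1*, a mitotic transcription factor, by 0.34 and *Cenpf*, a kinetochore protein, by 0.29. The 10 nearest genes of *Foxm1* on chromosome 6 had a median of 0.26, with 4 higher and 0 lower. *Mad2l1*, of the spindle checkpoint, fell from 147 and 147 CPM to 64.7 and 70.1 CPM (log2 fold change -1.13), and all 10 of its nearest genes on chromosome 6 were lower. The other members that fell, *Bub1* and *Top2a*, had log2 fold changes of -0.23 and -0.19 and were named after their values were seen.

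Other genes of the BCL2 family and of the caspase cascade were tested beside *Bax*, *Bbc3* and *Pmaip1*. Of 18 such genes, 1 was higher and 8 were lower, against 21.7% and 21.8% of all genes, with a median log2 fold change of -0.14. At the cutoffs of the study 0 were called in either direction by edgeR, against 7.85% of all genes tested. *Cycs*, which encodes cytochrome c, fell from 107 and 105 CPM in WT to 58.3 and 61.7 CPM (log2 fold change -0.82), and 7 of its 10 nearest genes on chromosome 6 were lower. *Bcl2l11*, which encodes the BH3-only protein Bim, fell from 48.5 and 50.02 CPM to 30.6 and 35.1 CPM (log2 fold change -0.59, edgeR adjusted p = 1.90e-08). *Bak1*, the effector related to *Bax*, fell by 0.30 on the log2 scale, and *Casp9*, the initiator caspase, by 0.43. *Xiap*, an inhibitor of caspases, was the 1 gene that rose, from 59.7 and 58.5 CPM to 69.1 and 78.2 CPM. *Mcl1*, the survival factor that Noxa binds, had 711 and 742 CPM in WT and 610 and 670 CPM in G3 *Terc*-/- libraries (log2 fold change -0.18, edgeR adjusted p = 0.00228). It was named for its tie to *Pmaip1* after its values were seen.

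**Figure D5:**
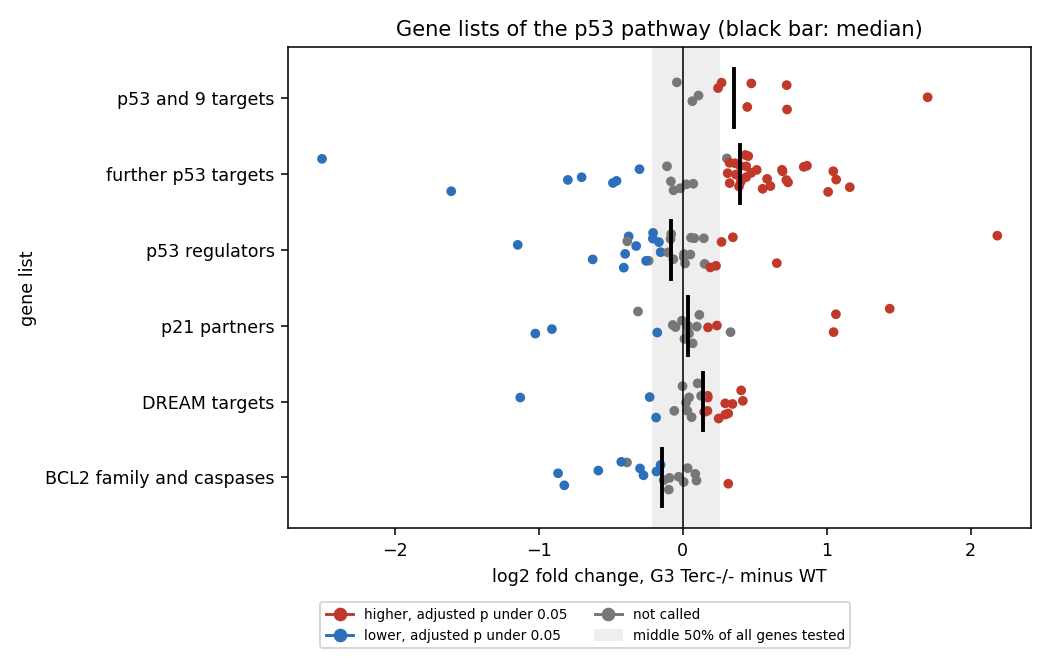
Log2 fold change (G3 Terc-/- minus WT) of every tested gene in 6 lists of the p53 pathway, with a black bar at each median; red was called higher, blue lower and grey not called, and the grey band holds the middle 50% of all genes tested. The medians of p53 with its 9 targets (0.36) and of the further targets (0.40) lie to the right of the band, and those of the other lists lie within it.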

How the data were processed

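RNA-seq libraries of 2 WT and 2 G3 *Terc*-/- ESC samples, grouped by their titles, were analysed. According to the submitters' processing notes, reads were trimmed with Trim Galore, aligned to mm10 with STAR and counted with featureCounts, and the authors deposited raw counts per gene without normalization; versions, strand and multimapping settings are not given in the sources used here. Counts per TE copy were not used. NCBI gene identifiers were matched to RefSeq (GRCm38.p6) for 24061 of 24116 genes, and merged exon lengths were taken from GENCODE M21, which shares the coordinates of mm10.

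Fold changes were computed with edgeR 4.0.16 in R 4.3.3 (quasi-likelihood test with genotype alone, TMM scaling, filterByExpr), with Benjamini-Hochberg adjustment over 14896 genes and a threshold of 0.05. Standard errors were derived from the quasi-F statistic. CPM used TMM-scaled library sizes, and RPKM used total gene counts. The fits were tested on simulated counts. The study computed its differentially expressed genes with Cufflinks, which was not repeated. The p53 genes and the lists were chosen with earlier results of these data known, and were written from general knowledge, as were the roles. Named genes were the 10 p53 genes, *Terc* and the 5 genes of smallest p in each list, besides those marked as named later and *Gtse1*, *Trp63* and the damage kinases, which were also named after their values were seen. The planned motif search around each start needed a genome and was replaced by promoter windows, and its 1 mismatch was allowed after the data were seen. Replicates differed by more than sampling noise (chi-square per gene 2.48 in WT and 3.77 in G3 *Terc*-/-). Alternatives were DESeq2 1.42.0, other scalings, no filter, a replicate block, the cutoffs of the study and each library left out.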

Additional observations from a re-analysis of the deposited data

How the results depend on the processing

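The count of 7 p53 genes higher and 0 lower was the same under every alternative except the cutoffs of the study. These cutoffs (fold change 2 and unadjusted p under 0.05) left 1 of the p53 genes higher, 4 further targets higher and 2 lower, 1 regulator higher and 1 lower, 3 p21 partners higher and 1 lower, 0 DREAM targets higher and 1 lower, and 0 BCL2 family genes in either direction, by the construction of a larger fold. Over all genes tested, the same cutoffs left 4.73% higher and 3.13% lower. With DESeq2, 3 p21 partners were higher and 5 BCL2 family genes were lower. Over all genes, DESeq2 called 1912 higher and 2241 lower of 19448, in place of 3238 and 3241 of 14896. DESeq2 was run without edgeR's filter on low counts, and the cause of the difference was not tested. With each library left out in turn, an arm of 1 library was assumed to vary like the other genotype. Over all genes tested, each of these fits called fewer genes higher and fewer lower than the main fit. The counts then ranged from 3 to 6 for regulators higher, from 7 to 12 for regulators lower, from 2 to 6 for p21 partners higher, from 7 to 11 for DREAM targets higher, from 1 to 3 for DREAM targets lower and from 5 to 8 for BCL2 family genes lower. The lowest counts came without WT replicate 2 (3 regulators higher, 1 DREAM target lower), without WT replicate 1 (7 regulators lower, 2 p21 partners higher), without either WT library (7 DREAM targets higher) and without WT replicate 2 or G3 *Terc*-/- replicate 1 (5 BCL2 family genes lower). Among 35 named genes under 10 alternatives, 347 of 350 values kept their direction and side of the threshold. *Cdkn1a* ranged from -0.0242 without WT replicate 2 (a reversed sign) to 0.16 without WT replicate 1 on the log2 scale, and *Ccna2* was not called without WT replicate 1 (adjusted p = 0.107) or replicate 2 (0.0594). Pairing the libraries by their number, as a replicate block, again gave 7 and 0 for the p53 genes; same-numbered libraries deviated together only weakly (correlation 0.0896), and the samples share only a number. Scaling without the genes of chromosome 6, chosen after seeing the data, gave 7 and 0 as well. The log2 fold changes of *Cdkn1a* and *Bbc3* were below 2 of their standard errors.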
